A study of Rattus norvegicus with 12 samples.

Results

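The interleukin 1 system was followed through 8 genes in whole lung from rats with and without experimental heart failure: the agonists Il1a and Il1b, the receptor antagonist Il1rn, the signalling receptor Il1r1 with its partner chain Il1rap, the decoy receptor Il1r2, and the related Il18 and Il1rl1. The members were all probe sets, each a group of array probes for 1 transcript, whose only gene symbol in the platform annotation was 1 of these 8. There were 13 of them among 31042 probe sets. Only probe sets that reached a log2 value of 4 on 3 or more of the 12 arrays were tested. This kept 16536 probe sets in all and 8 of the 13, for 7 of the 8 genes. Neither probe set of Il1rl1 was kept.

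The animals were age-matched male Sprague-Dawley rats. Juvenile rats had either supracoronary aortic banding, in which a clip narrows the aorta above the coronary arteries and leads to congestive heart failure (CHF) with secondary pulmonary hypertension, or a sham operation with no clip. From the first day after surgery they drank water with ketotifen, a mast cell stabilizer (1 mg per kg body weight each day), or placebo, and lungs were taken 9 weeks after surgery. The 4 groups were sham placebo, CHF placebo, sham ketotifen and CHF ketotifen, each with 3 rats and 1 array per rat. The labels call the undrugged CHF rats placebo-treated, whereas the design text calls them untreated.

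Interleukin 1 signals when either agonist binds the receptor Il1r1, which then recruits Il1rap and, through the adaptor Myd88 and the Irak kinases, turns on NF-kappaB and inflammatory target genes. Il1rn occupies the receptor without signalling, and Il1r2 binds the agonists but has no signalling tail, so that both limit the response. Il1b and Il18 are made as precursors that inflammasome caspases cut, and in the lung macrophages and other myeloid cells are well-known sources.

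Several arrays stood apart and bear on the comparisons below. The difference between 3' and 5' beta-actin probe sets, a sign of RNA degradation or incomplete labelling, was between 3.90 and 4.52 (log2) in sham placebo arrays 2 and 3 and sham ketotifen array 2, and between 2.90 and 3.45 in the other 9. Cardiomyocyte genes (6 of 8 on the array kept) averaged 8.84 in sham placebo array 3 and 6.65 and 10.02 in sham ketotifen arrays 1 and 2, and from 2.52 to 2.85 in the other 9. Alveolar epithelial genes (9 of 9 kept) averaged 12.24 to 13.48 in every array, which checks the lung label. CHF ketotifen arrays 1 and 3 were the closest pair, with an SD of 0.26 for their difference over probe sets. It was 0.397 or more for any pair without them. Their values were not identical, which does not by itself tell 2 rats from repeat arrays of 1 rat. They carry separate titles and were counted as 2 rats. The array most like CHF placebo 1 was CHF ketotifen 1 (r = 0.974), not another CHF placebo array.

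The sequences just upstream of Il1b, Il1rn and Il1a are shown because Il1b and Il1rn rose together in the data while Il1a, the gene next to Il1b, was not called. Each is the 250 bases before the gene's start in RefSeq on build GRCr8, written 5' to 3' on the gene's strand. The Il1b window lies at chr3:137036582-137036831, minus strand, that of Il1rn at chr3:27520072-27520321, plus strand, and that of Il1a at chr3:136990018-136990267, minus strand. Capitals mark matches, on either strand, to the letters GGGNNNNNCC for NF-kappaB, TGANTCA for AP-1 or TTGCNNAA for C/EBP.
Il1b: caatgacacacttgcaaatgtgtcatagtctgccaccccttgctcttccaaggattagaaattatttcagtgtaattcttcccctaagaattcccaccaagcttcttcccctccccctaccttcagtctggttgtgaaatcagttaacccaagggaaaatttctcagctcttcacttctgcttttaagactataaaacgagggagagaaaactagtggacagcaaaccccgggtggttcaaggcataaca
Il1rn: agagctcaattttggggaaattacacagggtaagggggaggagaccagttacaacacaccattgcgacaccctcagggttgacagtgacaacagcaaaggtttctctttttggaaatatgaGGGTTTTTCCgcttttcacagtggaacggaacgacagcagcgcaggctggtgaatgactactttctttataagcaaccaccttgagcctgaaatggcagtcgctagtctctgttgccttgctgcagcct
Il1a: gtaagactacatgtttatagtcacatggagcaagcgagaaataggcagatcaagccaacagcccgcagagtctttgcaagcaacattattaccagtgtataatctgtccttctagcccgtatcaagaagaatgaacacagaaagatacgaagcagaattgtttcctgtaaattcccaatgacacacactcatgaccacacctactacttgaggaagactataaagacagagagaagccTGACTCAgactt

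The Il1rn window held 1 NF-kappaB match, GGGTTTTTCC, from base -129 to base -120 before the start, and the Il1a window held 1 AP-1 match, TGACTCA, from base -12 to base -6. None of the 3 sets of letters was found in the Il1b window. Of 33360 such upstream windows of rat genes, 42.4% held the NF-kappaB letters, 6.35% the AP-1 letters and 9.2% the C/EBP letters, so a match to the NF-kappaB letters is common. Upstream sequence was matched for 7 of the 8 members. In the RefSeq gene order Il1a and Il1b are neighbours, Il1rn lies beside Il1f10, Il36rn and Il36b, and Il1r2, Il1r1, Il1rl2, Il1rl1, Il18r1 and Il18rap follow one another in a single cluster with only H3f3al3 between the first pair.

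**Figure D1:**
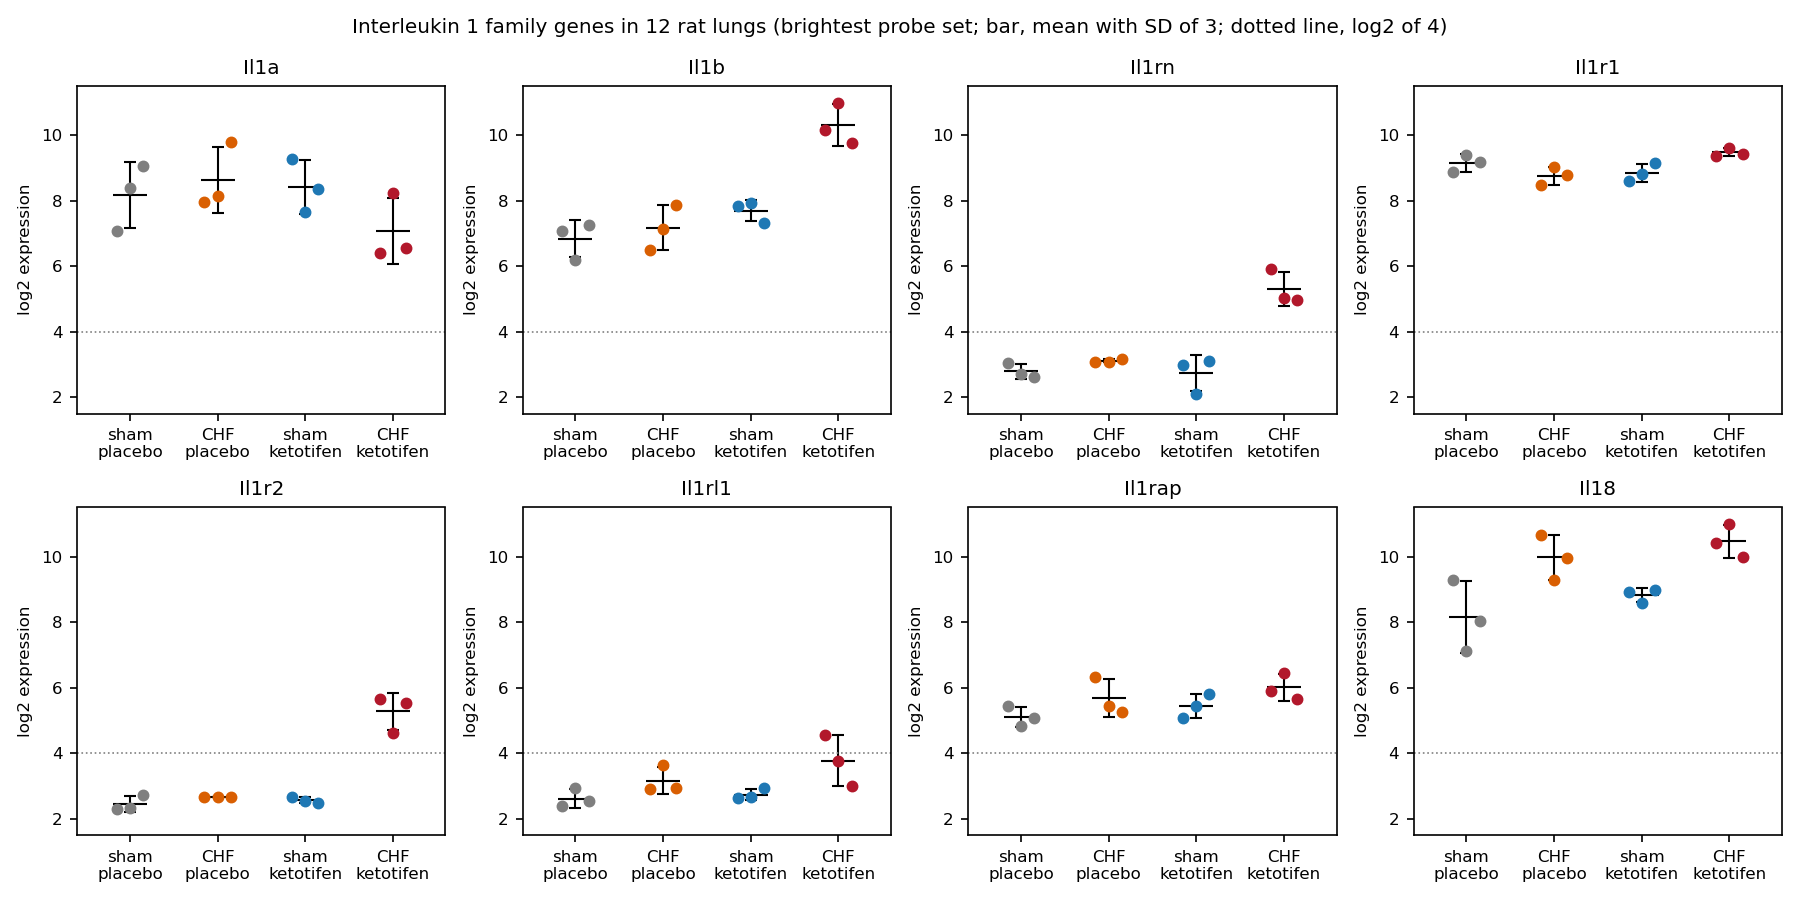
Log2 expression of the 8 genes in each of the 12 lungs (y axis, brightest probe set of each gene), by group (x axis); points are single arrays, bars are group means with the SD of 3, and the dotted line is the filter at log2 of 4. Il1b, Il1rn and Il1r2 are highest in the 3 CHF ketotifen lungs, Il1rn and Il1r2 lie below the line in the other 9, and Il18 is higher in both CHF groups than in sham ketotifen.

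The first comparison, CHF ketotifen against CHF placebo, asks how lungs differed with the drug among rats with heart failure. In the CHF ketotifen lungs the agonist Il1b and both of its natural brakes, the antagonist Il1rn and the decoy receptor Il1r2, rose, by 8.77-fold, 4.59-fold and 6.14-fold. The other agonist, Il1a, was not called. These 3 were the members called, by which is meant a limma Benjamini-Hochberg adjusted p under 0.05 over all 16536 probe sets kept. All 3 were higher, where 0.822% of all probe sets kept were called higher and 0.393% lower. Without CHF placebo array 1 these shares rose, from 136 to 528 probe sets higher and from 65 to 691 lower, and the same 3 members were called. A lung sample is bulk tissue, so more cells of a type and more RNA per cell cannot be told apart in any of these values.

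Il1b, the main secreted agonist of activated myeloid cells, was measured by 1 probe set, 1398256_at. It read 10.17, 10.99 and 9.75 in the CHF ketotifen arrays and 6.50, 7.14 and 7.87 in CHF placebo. It read 7.83, 7.93 and 7.32 in sham ketotifen and 7.07, 6.19 and 7.24 in sham placebo. Every CHF ketotifen lung was above every other lung. The log2 difference from CHF placebo was 3.13 ± 0.41 (SE, n = 3 per group; limma adjusted p = 0.00366). Il1b stayed called when each of the 12 arrays was left out in turn (adjusted p from 0.00367 to 0.0256), but not when only the 6 arrays of the 2 groups entered the fit (adjusted p = 0.0574, the highest of its 22 alternatives).

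The antagonist Il1rn (1387835_at) read 5.91, 5.04 and 4.97 in CHF ketotifen and 3.07, 3.09 and 3.16 in CHF placebo. Its values were 2.99, 2.11 and 3.12 in sham ketotifen and 3.04, 2.72 and 2.61 in sham placebo. The decoy receptor Il1r2 (1387180_at) read 5.66, 4.62 and 5.54 in CHF ketotifen and 2.66, 2.65 and 2.66 in CHF placebo. Both genes were thus near the floor of these values in 9 lungs and above it in the 3 CHF ketotifen lungs, with no overlap. Il1r2 gave 2.66, 2.55 and 2.49 in sham ketotifen and 2.28, 2.32 and 2.72 in sham placebo.

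Because only the CHF ketotifen arrays carried Il1rn and Il1r2 past the filter, a kept probe set of this kind had to differ, and the count of 3 out of 8 is not support of its own. The log2 difference of Il1rn was 2.20 ± 0.31 (limma adjusted p = 0.00594) and that of Il1r2 2.62 ± 0.26 (limma adjusted p = 0.000517). Both stayed called in all 21 alternatives tried, with adjusted p up to 0.0408 for Il1rn and 0.0305 for Il1r2. With no filter at all, Il1rn had an adjusted p of 0.0117, Il1r2 of 0.000937 and Il1b of 0.0120. Log2 values between about 2 and 4 are flattened toward background, so the folds of Il1rn and Il1r2 have an uncertain size.

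Il1r1, the receptor that passes the signal on, was 9.38, 9.62 and 9.43 in CHF ketotifen (1392946_at). It was 8.48, 9.03 and 8.79 in CHF placebo, 8.60, 8.82 and 9.14 in sham ketotifen, and 8.87, 9.39 and 9.18 in sham placebo. The CHF ketotifen lungs lay above both CHF placebo and sham ketotifen but overlapped sham placebo. The difference from CHF placebo was 0.71 ± 0.19 and missed the threshold (limma adjusted p = 0.0974). The other Il1r1 probe sets, 1370750_a_at and 1369255_at, stayed below 4 in every array.

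Il1a, the agonist that is active without cutting and is often kept in or on the cell, was scattered. Its brighter probe set, 1368592_at, read 6.41, 8.23 and 6.56 in CHF ketotifen and 7.96, 8.15 and 9.79 in CHF placebo. It read 9.28, 7.64 and 8.36 in sham ketotifen and 7.06, 8.40 and 9.04 in sham placebo. The groups overlapped, with 2 of the 3 CHF ketotifen lungs below all 9 others. The difference from CHF placebo was -1.57 ± 0.68 (limma adjusted p = 0.273). The second probe set, 1371170_a_at, gave -1.10 ± 0.74 (limma adjusted p = 0.475), and the pair correlated with r = 0.82 over the 12 arrays.

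Il1rap, the partner chain shared by several receptors of the family, ranged from 4.81 to 6.46 over the 12 arrays (1393563_at). Its difference from CHF placebo was 0.33 ± 0.32 (limma adjusted p = 0.636), and its second probe set, 1387507_at, never reached 4. Il1rl1, the receptor for Il33, reached 4 in a single lung, CHF ketotifen 1, at 4.55 (1370692_at), and its other probe set, 1387273_at, in none. Fitted without the filter, 1370692_at was 1.03 ± 0.34 higher in CHF ketotifen than in sham ketotifen (limma adjusted p = 0.124). The other, 1387273_at, was 0.19 ± 0.23 higher (limma adjusted p = 0.644). Against CHF placebo they differed by 0.61 ± 0.34 and 0.20 ± 0.23 (limma adjusted p = 0.399 and 0.668). Over the 8 probe sets kept the differences ran from -1.57 to 3.13. Beside Il1rn and Il1r2, which had to separate, every CHF ketotifen lung was above every CHF placebo lung for Il1b and Il1r1. This was so for 9.86% of all probe sets kept, some of them also kept through that group alone.

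**Figure D2:**
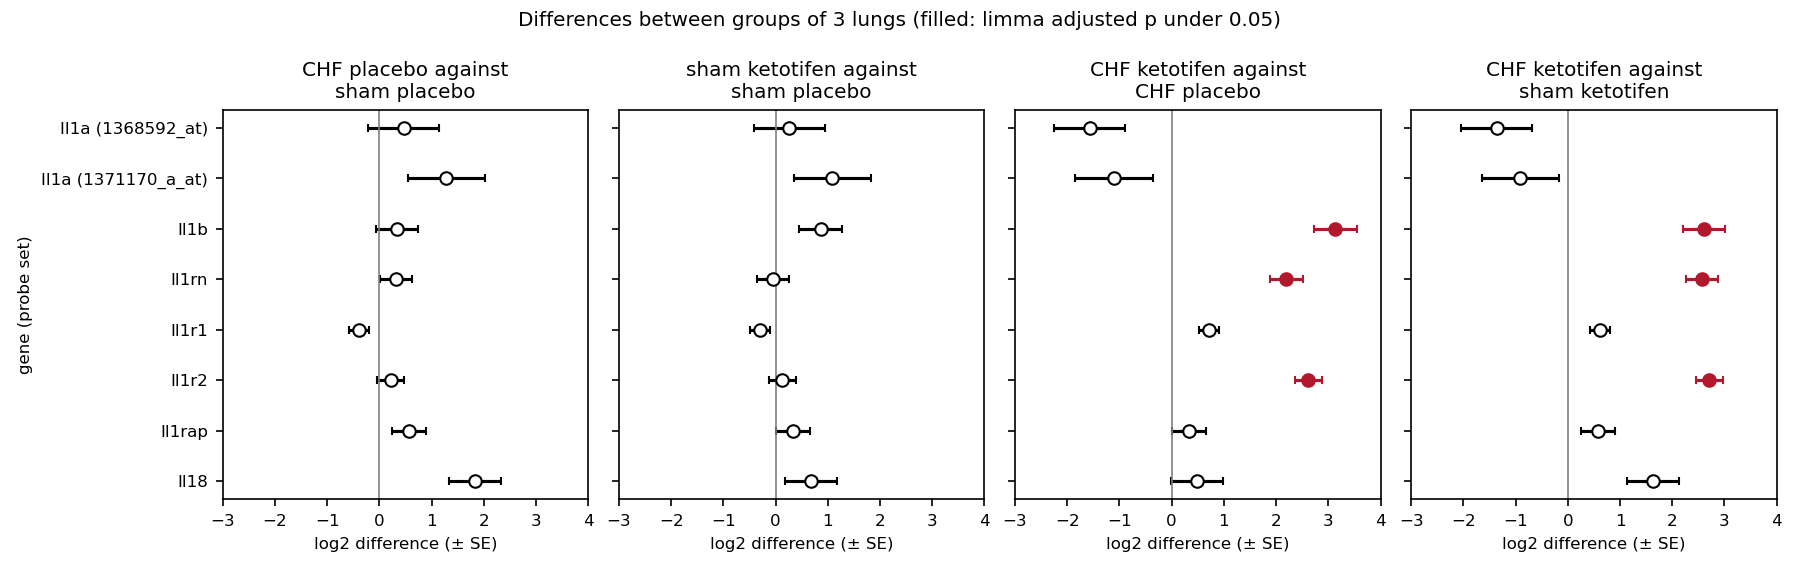
Log2 differences with their SE (x axis) for the 8 probe sets kept (y axis) in the 4 comparisons of 3 lungs against 3; filled points have a limma adjusted p under 0.05. Il1b, Il1rn and Il1r2 are filled in both panels that set CHF ketotifen against another group, and no point is filled in the other panels.

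Heart failure under the drug was read from CHF ketotifen against sham ketotifen, which shares its CHF ketotifen arrays with the comparison above. Il1b, Il1rn and Il1r2 were the members called here too, all higher, where 6.36% of all probe sets kept were called higher and 6.61% lower. The log2 difference was 2.61 ± 0.41 for Il1b (6.10-fold; limma adjusted p = 0.00505) and 2.57 ± 0.31 for Il1rn (5.92-fold; limma adjusted p = 0.00136). It was 2.71 ± 0.26 for Il1r2 (6.53-fold; limma adjusted p = 0.000367). Il1rn and Il1r2 again had to separate. Of the others, Il1b, Il18 and Il1r1 were higher in every CHF ketotifen lung than in every sham ketotifen lung, as were 19.2% of all probe sets kept.

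Il18 and Il1r1 were not called in the main fit, but Il18 was in 7 and Il1r1 in 6 of 22 alternatives. Il18, a cytokine that is stored as a precursor and drives interferon gamma from lymphocytes, read 10.40, 11 and 10 in CHF ketotifen against 8.92, 8.60 and 8.99 in sham ketotifen (1369665_a_at). The difference was 1.63 ± 0.50 (3.10-fold; limma adjusted p = 0.0533). Il1r1 differed by 0.62 ± 0.19 (limma adjusted p = 0.0553). The calls of Il1b, Il1rn and Il1r2 were lost without the sham ketotifen arrays with cardiomyocyte signal and sham placebo array 3. That fit leaves 1 sham ketotifen array, assumed to vary like the other groups, and called 34 probe sets higher and 9 lower among all those kept. The differences were 2.98, 2.19 and 2.78 for Il1b, Il1rn and Il1r2, and none was called (limma adjusted p = 0.151, 0.101 and 0.0518, each the highest over its alternatives). At an unadjusted p under 0.05 the same fit held 3 of the 8.

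Heart failure without the drug was read from CHF placebo against sham placebo. No member was called by limma, where 0.169% of all probe sets kept were called in either direction, and 1 of the 8, Il18, had an unadjusted p under 0.05. Il18 read 10.66, 9.30 and 9.97 in CHF placebo and 9.30, 7.12 and 8.03 in sham placebo. The highest sham lung equalled the lowest CHF lung to 2 decimals. The difference was 1.82 ± 0.50 (3.54-fold; limma adjusted p = 0.115).

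The value of Il18 depended on which sham lungs were used. Without sham placebo array 1 it was 2.40 (limma adjusted p = 0.00992), in a run that called 753 probe sets higher and 743 lower among all those kept, against 24 and 4 with it. The other runs that left out 1 array gave 1.31 or more. Without the 3 arrays of largest actin difference, it was 0.67 (limma adjusted p = 0.922). That fit leaves only sham placebo array 1 in its group, assumed to vary like the other groups, and limma called 0 of all probe sets kept, with 925 at an unadjusted p under 0.05. These adjusted p of 0.00992 and 0.922 are the ends of its range over 22 alternatives. Il1b differed by 0.34 ± 0.41 (limma adjusted p = 0.682), Il1a by 0.46 ± 0.68 and Il1r1 by -0.39 ± 0.19. Il1rn was higher in every CHF placebo lung than in every sham placebo lung, by 0.32 ± 0.31, at levels below 4. It was the 1 probe set of the 8 with no overlap in that direction, where 12.7% of all probe sets kept were.

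The drug without heart failure was read from sham ketotifen against sham placebo. No member was called by limma, none had an unadjusted p under 0.05, and 0.0847% of all probe sets kept were called in either direction. Il1b was higher in every sham ketotifen lung than in every sham placebo lung, by 0.86 ± 0.41 (limma adjusted p = 0.376). It was the 1 probe set of the 8 with no overlap, where 7.5% of all probe sets kept were higher with none. Il1rn differed by -0.05 ± 0.31 and Il1r2 by 0.13 ± 0.26.

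Whether the drug difference was larger in CHF than in sham rats was tested as the interaction of surgery and drug. Il1r2 was called, where 0.254% of all probe sets kept were called with a positive interaction. Since Il1r2 was kept only through the CHF ketotifen arrays and lay at background in the other 9, its positive sign follows from the filter and is not support of its own. Il1rn was kept in the same way. For Il1r2 the drug difference in CHF exceeded that in sham rats by 2.49 ± 0.37 (limma adjusted p = 0.0199). It stayed called in 5 of the 12 runs that left out 1 array, with adjusted p from 0.00165 to 0.0783. Il1rn gave 2.25 ± 0.44 (limma adjusted p = 0.0652) and Il1b 2.27 ± 0.58 (limma adjusted p = 0.174), neither called. Il1a gave -1.82 ± 0.96 and Il18 -0.19 ± 0.70, neither called.

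The agonists were next set against the antagonist and the decoy within each array, as the difference of 2 log2 values. Probe sets differ in brightness, so such a difference says how the balance shifts between groups, not which RNA is more abundant. Il1b minus Il1rn was 4.26, 5.95 and 4.78 in CHF ketotifen, 3.43, 4.06 and 4.71 in CHF placebo, 4.85, 5.82 and 4.21 in sham ketotifen, and 4.03, 3.47 and 4.63 in sham placebo. All 4 groups overlapped. Il1rn and Il1r2 were near background in the 9 lungs outside CHF ketotifen and passed the filter only through that group. Every difference from them is therefore taken against a flattened value in those lungs, its size is uncertain, and a shift in CHF ketotifen repeats the rise that kept the probe set.

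**Figure D3:**
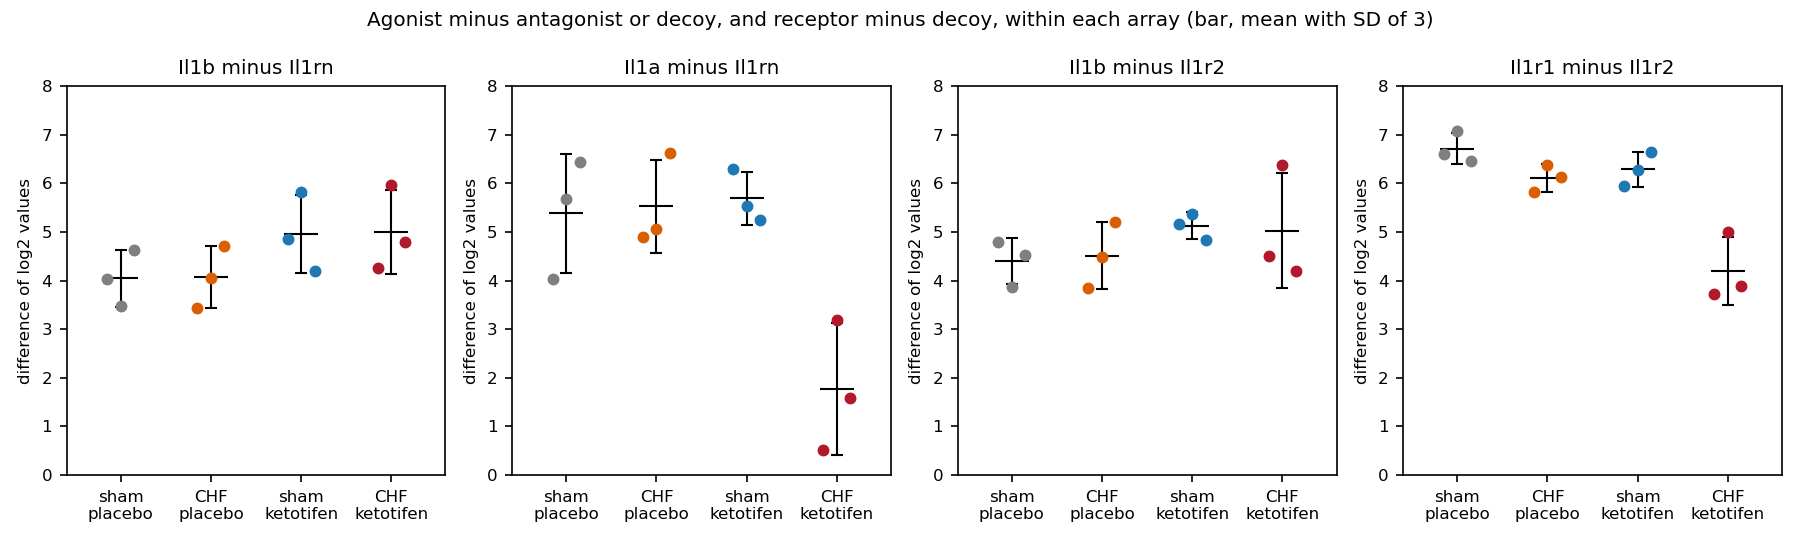
Within-array differences of log2 values (y axis) for 4 pairs of genes, by group (x axis); points are arrays and bars are means with the SD of 3. Il1b minus Il1rn overlaps between all groups, Il1b minus Il1r2 is higher in every sham ketotifen lung than in every sham placebo lung, and Il1a minus Il1rn and Il1r1 minus Il1r2 are lower in the 3 CHF ketotifen lungs than in all 9 others.

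For each of the 4 pairs the surgery difference (averaged over the drug arms) and the drug difference (averaged over the surgery arms) were tested by exact two-sided permutation of the labels within arms. Each test had 400 relabellings and a smallest possible p of 0.005, and p was adjusted over the 8 tests. Il1b minus Il1rn changed by 0.03 with surgery (exact permutation p = 0.875, adjusted 0.970) and by 0.92 with the drug (exact permutation p = 0.05, adjusted 0.133). Il1b minus Il1r2 changed by 0.01 with surgery (exact permutation p = 0.970) and by 0.62 with the drug (exact permutation p = 0.165, adjusted 0.220). Neither pair with Il1b passed, which does not show that the balance was constant. Il1b minus Il1r2 was 5.17, 5.38 and 4.83 in sham ketotifen and 4.79, 3.87 and 4.52 in sham placebo, with no overlap, a change of 0.73 (exact permutation p = 0.1, the smallest that 3 against 3 allows).

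The pairs without Il1b were lower in CHF ketotifen. Il1a minus Il1rn was 0.50, 3.19 and 1.59 in CHF ketotifen, 4.89, 5.06 and 6.63 in CHF placebo, 6.30, 5.53 and 5.24 in sham ketotifen, and 4.03, 5.68 and 6.43 in sham placebo. The 3 CHF ketotifen lungs were below the other 9. With Il1rn at background in those 9, the size of this gap is not measurable, and its direction follows in part from how Il1rn was kept. Averaged over arms the surgery change was -1.89 (exact permutation p = 0.07, adjusted 0.136) and the drug change -1.73 (exact permutation p = 0.085, adjusted 0.136).

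Il1r1 minus Il1r2, the signalling against the decoy receptor, was 3.72, 4.998 and 3.89 in CHF ketotifen and 5.82, 6.37 and 6.13 in CHF placebo. It was 5.94, 6.27 and 6.65 in sham ketotifen and 6.60, 7.08 and 6.46 in sham placebo. Again the CHF ketotifen lungs were lowest. The surgery change was -1.34 (exact permutation p = 0.005, the smallest possible, adjusted 0.04) and the drug change -1.16 (exact permutation p = 0.015, adjusted 0.06). The surgery change was -2.09 under ketotifen and -0.60 under placebo, and outside CHF ketotifen the values are those of Il1r1 above a decoy receptor at background, so this test is not separate from the rise of Il1r2. The surgery call was lost without sham placebo array 1 or 2 or CHF placebo array 1 or 3 (adjusted exact permutation p = 0.08 at most), with changes from -1.54 to -1.22 over the runs that left out 1 array.

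The other genes of the pathway were read from lists of ligands, receptors, processing, signalling, NF-kappaB and target genes. The lists were chosen with earlier results of these data known. Of 21 textbook target genes of interleukin 1, 13 were kept. In CHF ketotifen against CHF placebo 7 were called higher and none lower, where 0.822% of all probe sets kept were higher and 0.393% lower. The median difference of the 13 was 2.73 against -0.04 over all probe sets. Il6, Cxcl2 and Sele, like Il1rn, would not have passed the filter without the CHF ketotifen arrays. Among the 10 target genes that passed on other arrays 4 were called higher, with a median of 1.17.

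The target genes of smallest p were chemokines and Il6. Cxcl2, a neutrophil attractant, read 8.47, 8.05 and 7.75 in CHF ketotifen and 2.68, 2.26 and 2.27 in CHF placebo (difference 5.68 ± 0.21, limma adjusted p = 2.32e-07). Ccl2, which attracts monocytes, was 11.23, 11.48 and 10.75 against 6.18, 5.48 and 4.84 (5.65 ± 0.31, limma adjusted p = 9.38e-06). Ccl2 was far outside the CHF placebo range. Cxcl2 passed the filter only through the CHF ketotifen arrays, as did Il6 and Sele. The CHF placebo values of Cxcl2 lay near background, so its separation follows from the filter and the size of its difference is uncertain. Cxcl1 differed by 4.46 ± 0.31 (limma adjusted p = 3.26e-05) and Il6 by 7.42 ± 0.67 (limma adjusted p = 3e-04). The other 3 called, named after their values were seen, were Ptgs2, Sele and Plaur.

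Upstream of these targets, few genes were called in the same comparison. Of 10 NF-kappaB genes kept 2 were called higher, where 0.822% of all probe sets kept were. They were Nfkbiz, by 1.87 ± 0.17 (limma adjusted p = 0.000266), and Tnfaip3, by 2.59 ± 0.27 (limma adjusted p = 0.000951). Nfkbiz encodes an inducible nuclear IkappaB and Tnfaip3 the enzyme A20, which restrains NF-kappaB. Of 13 receptor-proximal genes kept, none was called. Those of smallest p were Map3k8, 1.11 ± 0.28 (limma adjusted p = 0.0829), and the adaptor Myd88, 0.44 ± 0.14 (limma adjusted p = 0.159). The 7 inflammasome and processing genes kept ranged from -0.36 to 0.50, none called. Those of smallest p were Casp8, 0.30 ± 0.15 (limma adjusted p = 0.312), and Nek7, -0.28 ± 0.16 (limma adjusted p = 0.382). Casp1, given for its role as the Il1b-cutting caspase, was at -0.13 ± 0.30.

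**Figure D4:**
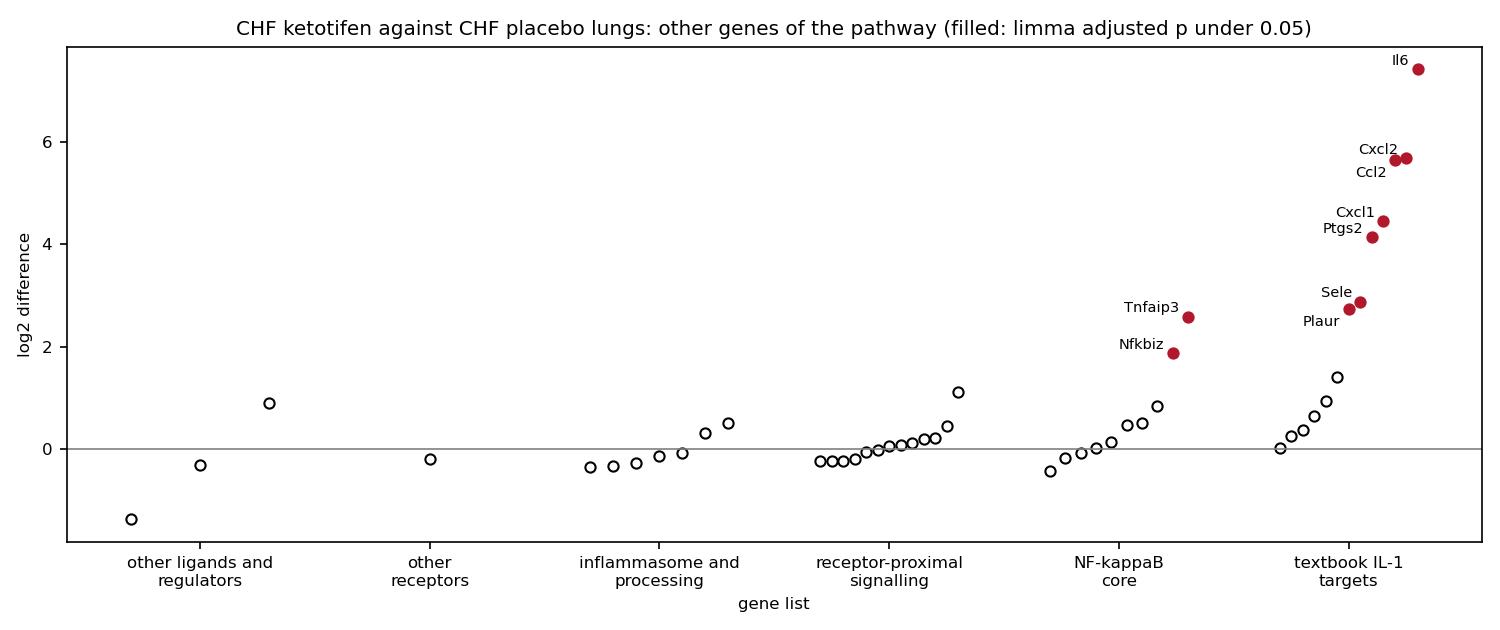
Log2 difference of CHF ketotifen against CHF placebo (y axis) for the genes kept of 6 pathway lists (x axis), each point 1 gene, sorted within its list; filled points have a limma adjusted p under 0.05 and are named. The 9 filled points lie in the target and NF-kappaB lists, and the inflammasome and processing genes stay between -0.36 and 0.50.

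In CHF ketotifen against sham ketotifen calls were more frequent over all probe sets kept, at 6.36% higher and 6.61% lower. Of the 13 target genes 8 were higher, and 5 of the 10 that passed on other arrays. Ccl2 rose by 6.53 ± 0.31 and Cxcl2, which again had to separate, by 5.73 ± 0.21. Of the 10 NF-kappaB genes 4 were higher, the added ones being Nfkb1 (0.49 ± 0.14, limma adjusted p = 0.0411) and Nfkb2 (0.51 ± 0.15, limma adjusted p = 0.0444). Map3k8 rose by 1.41 ± 0.28 (limma adjusted p = 0.0126) and Myd88 by 0.65 ± 0.14 (limma adjusted p = 0.0195). Casp4, an inflammasome caspase, rose by 1.12 ± 0.31 (limma adjusted p = 0.0381), while Txnip, which binds and inhibits thioredoxin, fell by 1.03 ± 0.24 (limma adjusted p = 0.0230). Sigirr, an inhibitory receptor of the family, fell by 0.58 ± 0.16 (limma adjusted p = 0.0383).

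Among the other ligands, Il33 and Il36b were called in that comparison. Il33, an alarmin that signals through Il1rl1, read 9.60, 9.29 and 9.68 in CHF ketotifen and 12.04, 12.26 and 11.69 in sham ketotifen. It was 9.43, 11.42 and 11.85 in CHF placebo and 11.94, 11.47 and 11.75 in sham placebo. CHF placebo array 1 was thus as low as the CHF ketotifen lungs. Il33 fell by 2.47 ± 0.48 against sham ketotifen (limma adjusted p = 0.0120) and gave -1.38 ± 0.48 against CHF placebo (limma adjusted p = 0.181). Il36b rose by 1.42 ± 0.40 (limma adjusted p = 0.0412), and would not have passed the filter without the CHF ketotifen arrays.

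In CHF placebo against sham placebo, and in sham ketotifen against sham placebo, none of the 6 lists held a called gene by limma. Of all probe sets kept only 0.169% and 0.0847% were called in either direction, so few calls or none would be looked for in such lists. The target of smallest p in undrugged heart failure was Ccl2, at 1.70 ± 0.31 (limma adjusted p = 0.0636). Tnfaip3 gave 0.80 ± 0.27 in that comparison (limma adjusted p = 0.159) and 0.95 ± 0.27 in the sham comparison (limma adjusted p = 0.227). With a positive interaction, 5 of the 13 targets (3 of the 10 that passed on other arrays) and 1 of the 10 NF-kappaB genes, Nfkbiz at 1.78 ± 0.24 (limma adjusted p = 0.00964), were called. Of all probe sets kept, 0.254% were called with a positive interaction.

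Markers of other cells differed along with these results, and their part in them was not tested. The mean level of 11 monocyte and macrophage genes (11 of 11 on the array kept) ran from 6.42 to 7.81 in sham placebo, 8.07 to 8.99 in CHF placebo, 7.51 to 7.71 in sham ketotifen and 8.98 to 9.37 in CHF ketotifen. In CHF ketotifen against sham ketotifen 7 of the 11 were called higher, where 6.36% of all probe sets kept were, with a median difference of 1.71. In CHF ketotifen against CHF placebo none was, where 0.822% were, with a median of 0.88 against -0.04 over all probe sets. Neutrophil genes (4 of 7 kept; Mmp8, Cxcr2 and Camp were not) averaged 6.84 to 8.77, 8.12 to 9.48, 8.67 to 9.35 and 9.47 to 10.65 in the same order of groups. S100a8, an abundant neutrophil protein named after its values were seen, differed by 2.40 ± 0.78 between CHF ketotifen and CHF placebo (limma adjusted p = 0.152). Mast cell genes (11 of 13 kept) averaged 4.39 to 5.34, 6.39 to 7.67, 5.67 to 6.001 and 5.97 to 7.23, so the CHF groups overlapped. None of the 11 was called in CHF ketotifen against CHF placebo (median -0.47). In CHF ketotifen against sham ketotifen 5 of 7 endothelial genes kept were called lower and 1 higher (median -1.31). Of 6 club cell genes kept 3 were lower (median -2.81), where 6.61% of all probe sets kept were called lower. Il33, Sigirr and Txnip fell in the same comparison, and a link was not tested. Endothelial genes averaged 11.40 to 11.55 in sham placebo, 10.42 to 11.23 in CHF placebo, 11.25 to 11.49 in sham ketotifen and 10.25 to 10.68 in CHF ketotifen. Club cell genes averaged 7.91 to 12.24, 6.75 to 9.43, 7.69 to 10.79 and 5.997 to 6.83 in the same order. Sham placebo array 2 had the lowest Il18 and the lowest macrophage mean, and the CHF ketotifen lungs and CHF placebo array 1 held the 4 highest of both, in a different order.

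**Figure D5:**
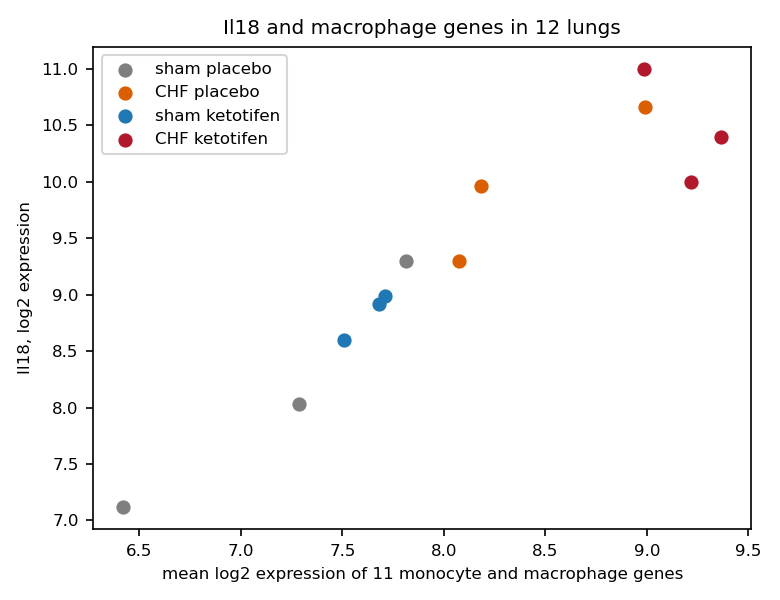
Il18 (y axis, log2) against the mean log2 expression of 11 monocyte and macrophage genes (x axis) in the 12 lungs, coloured by group. Sham placebo array 2 is lowest on both axes and the CHF ketotifen lungs lie at the upper right.

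The genes whose values followed each member most closely over the 12 arrays were picked by Pearson r among 9733 genes, as a description, since the arrays share their groups. For Il1b they were Tnfaip3 (r = 0.966), Lpar6 (0.958), Ccl3 (0.955), Tlr2 (0.945) and Sele (0.943). For Il1rn they were Ccl7 (0.953), Cxcl2 (0.951), Adamts4 (0.946), Depdc1 (0.945) and Itpkc (0.939). For Il1r2 they were Gfpt2 (0.987), Coq10b (0.983), Itpkc (0.980), Samsn1 (0.978) and Cxcl2 (0.976). Itpkc and Cxcl2 were thus on both of the last lists. Il1rn, Il1r2 and Cxcl2 were kept only through the CHF ketotifen arrays and lay near background in the others. A high r between such probe sets follows in part from the filter, so a shared companion is not support of its own.

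Il18 had different companions: Cyba (0.987), Naaa (0.986), Pilra (0.985), Igsf6 (0.985) and Clec7a (0.983). Cyba encodes a subunit of the phagocyte NADPH oxidase and Clec7a the beta-glucan receptor dectin-1 of myeloid cells. The nearest genes to Il1r1 were Tox4 (0.897), Krt18 (0.870), Rbm33 (0.868), Sema4b (0.852) and Ogfrl1 (0.839). For Il1rl1, which was near background, the first was Stk38l (0.886).

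Among the members themselves Il1rn and Il1r2 were the closest pair of different genes, with r = 0.946 over 12 arrays. After each group's mean was taken off, r was 0.244, so nearly all of that likeness lay between groups. Il1b with Il1rn gave 0.855 and, within groups, -0.133. Il1rn and Il1r2 were at background in 9 lungs, so their within-group values carry little. Both were kept only through the CHF ketotifen arrays, so their r over 12 arrays follows in part from the filter. Il18 with Il1rap gave 0.848 and, within groups, 0.721.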

How the data were processed

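Total RNA from 12 whole lungs was labelled by a one-cycle protocol and hybridized to Affymetrix rat genome arrays, per the labels' protocols. What the authors deposited is 1 log2 value for each probe set and array. The submitters' processing notes name GCRMA and R 2.5.0, and no source used here gives the settings. Scanner files were not used. Low values are flattened toward background, and the number of arrays limits the precision.

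Of 31099 probe sets, 57 controls were left out. Symbols came from the platform annotation (20826 probe sets had 1 symbol, 436 several, 9780 none). Differences were fitted with limma 3.58.1 (lmFit, eBayes with trend) in R 4.3.3 over all 12 arrays as 4 group means. Permutation tests used Python 3.11.15. The scripts were tested on simulated data. Samples were grouped by their titles.

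Every member was named. From each pathway list and comparison up to 4 called genes of smallest p were named, or otherwise the 2 of smallest p, and for likeness the 5 genes of highest r. The members and lists were chosen with earlier results of these data known. Alternatives changed the filter, trend, normalization, samples and replicate block. Replicate numbers were taken to name different rats and not to pair the samples. Over 18 same-numbered pairs the deviations correlated from -0.35 to 0.26, with 5 pairs over 0.1. Differently numbered pairs were not compared, so whether the numbers mark a pairing was not tested.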

Additional observations from a re-analysis of the deposited data

Results flagged for a closer look

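Il1r2, the decoy receptor, was set aside because its drug difference was not the same in the 2 surgery arms by the interaction test. The drug difference in CHF rats exceeded that in sham rats by 2.49 on the log2 scale (limma adjusted p = 0.0199). All 3 CHF ketotifen lungs lay between 4.62 and 5.66, and the other 9 lay between 2.28 and 2.72, near background. Il1r2 passed the filter only through the CHF ketotifen arrays, so the sign of this interaction follows from the filter. In the runs that left out 1 array the limma adjusted p ran from 0.00165 to 0.0783. Of all 20 alternatives, 10 kept the call. Those that lost it include the fits without the arrays of lowest RNA integrity or of high cardiomyocyte signal, each leaving 1 array in a sham group.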

How the results depend on the processing

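With 3 arrays per group, values near background and a single lung per point limit what can be called, and a threshold crossed in 1 setting is not a change in size. Under all alternatives 210 recomputed counts and averaged pair changes, and 1083 recomputed values of single probe sets and of 3-against-3 pair changes, kept their direction and side of the threshold or moved by less than the replicate SD. In the results below the cause was not tested unless it is named.

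In CHF ketotifen against CHF placebo 3 probe sets were called in each run that left out 1 array. With a filter at log2 of 6 in at least 3 arrays 1 was called, Il1b, because that filter leaves 5 of the 8 probe sets and drops Il1rn and Il1r2. Il1b, fitted with only the groups compared, gave 3.13 (adjusted p = 0.0574). In CHF ketotifen against sham ketotifen a fit of only the groups compared called Il18 (1.63 ± 0.26, limma adjusted p = 0.0104). There the filter at log2 of 6 gave calls for Il18 and Il1r1 (limma adjusted p = 0.0445 and 0.0485). In CHF ketotifen against sham ketotifen the count was 5 with arrays centred on their median, 5 with the replicate block and 0 without the 3 arrays of high cardiomyocyte signal (limma; 3 at an unadjusted p under 0.05). The block changed no other count. It was 3 to 5 in the runs that left out 1 array, and it was 5, with Il18 and Il1r1 added, without sham placebo array 1 or 2 or CHF placebo array 1. In CHF placebo against sham placebo that range was 0 to 1, with Il18 called without sham placebo array 1, where 753 probe sets were called higher and 743 lower over all those kept, against 24 and 4 with it. In sham ketotifen against sham placebo the same omission gave 283 higher and 439 lower, against 7 and 7, with no member called.

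The interaction held 0 called members with the filter at log2 of 6, which drops Il1r2, so that its call was not retested there. It also held 0 with CHF ketotifen arrays 1 and 3 averaged (limma; 2 and 4 at an unadjusted p under 0.05 in these fits). Il1r2 gave 2.32 without the 3 arrays of lowest RNA integrity and 2.42 without those of high cardiomyocyte signal. Each of those fits leaves 1 array in a sham group, so a call or its loss there says little. In the runs that left out 1 array the interaction held 0 to 2 called members. It held 2 without CHF placebo array 1 (131 higher and 172 lower over all probe sets, against 42 and 19 with it). It held 0 without sham placebo array 3, CHF placebo array 2 or 3, sham ketotifen array 1, 2 or 3, or CHF ketotifen array 3.

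Values that turned sign were all of uncalled results. Without the arrays of lowest RNA integrity, sham ketotifen against sham placebo gave 0.016 for Il1rn, -0.0003 for Il1rap and -0.35 for Il18, and the interaction of Il18 gave 0.84. Without the arrays of high cardiomyocyte signal the former gave 0.24 for Il1rn and 0.0095 for Il1r1, and the interaction of Il1rap gave -0.34. Quantile normalization turned the surgery change of Il1b minus Il1rn to -0.0038 and that of Il1b minus Il1r2 to -0.015, and the latter was -0.12 without the arrays of lowest RNA integrity. The surgery change of Il1r1 minus Il1r2 was -1.29 without the latter arrays and -1.59 without those of high cardiomyocyte signal (both adjusted exact permutation p = 0.2, where fewer relabellings exist). It was -1.28 with the next brightest Il1r1 probe set (adjusted exact permutation p = 0.08). That probe set, 1370750_a_at, lay between 2.64 and 3.62 and was not kept. The value is therefore largely the rise of Il1r2 and not a second measure of the balance.

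Over the runs that left out 1 array, Il1a in CHF placebo against sham placebo ran from -0.11 to 0.90, Il1b from -0.0092 to 0.67, Il1a in sham ketotifen against sham placebo from -0.29 to 0.70, and Il1rn from -0.24 to 0.26. The interaction ran from -0.22 to 0.33 for Il1rap and from -0.77 to 0.32 for Il18. The surgery change ran from -0.21 to 0.25 for Il1b minus Il1rn, from -0.33 to 0.22 for Il1b minus Il1r2 and from -1.54 to -1.22 for Il1r1 minus Il1r2. The drug change of Il1r1 minus Il1r2 ran from -1.36 to -1.04 and was called only without sham ketotifen array 3 (adjusted exact permutation p = 0.04).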
